A study of Homo sapiens with 18 samples.

Results

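TBX4 and TBX5 were compared directly, as 3 RNA-seq libraries of cells given a TBX4 plasmid against 3 libraries of cells given a TBX5 plasmid, out of 18 libraries in the series. All libraries came from NCI-H1299, an established human non-small cell lung cancer line at passage 12 to 14. The other 12 libraries served as background: 3 with TBX2, 3 with TBX3, 3 with the empty vector (EV) and 3 of a control labelled Ctl, whose treatment the sources used here do not name. Cells were transfected transiently with a lipid reagent. The TBX4 plasmid encoded the human factor with a Flag tag, while the TBX5 plasmid encoded the mouse factor with an HA tag in the pCGN vector, so vector, tag and species cannot be told apart from the factor in any difference given here. TBX2 had the same kind of human Flag plasmid as TBX4, and TBX3 was in pCGN with an HA tag like TBX5. The labels do not say that replicates a, b and c were separate cultures, so p-values measure the spread between these libraries, which may be technical. The genes compared were the 15576, of 63677 in the count table, that exceeded 5 counts in 10 or more of the 18 libraries.

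T-box factors bind DNA through a conserved T-box domain and can raise or lower transcription of nearby genes. TBX4 and TBX5 arose from a common ancestral gene. In the embryo TBX4 is known for hindlimb and lung growth, and TBX5 for forelimb, heart and lung growth, where the pair act together in the mesenchyme of the lung bud. Both recognise a core of the letters AGGTGT. The TBX2 subfamily is lowered in many lung tumours, which is why forced expression of its members was examined in this line.

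The 3 TBX4 libraries held 9188954 to 10276199 counts and the 3 TBX5 libraries 7387816 to 8016417. ENSG00000266658, which has no symbol, took 13.2% to 18.6% of the counts with TBX4. It took 22.5% in TBX5 replicate a, 53.5% in replicate b and 52.7% in replicate c, so that 3436454 and 3793701 counts were left for all other genes in the last 2 libraries. The mitochondrial ribosomal RNAs took 21.0% to 22.3% with TBX4 and 20.4%, 11.3% and 11.9% with TBX5. Among the 6 libraries, TBX5 replicates b and c therefore stood apart. The share of ENSG00000266658 also varied in the other groups, from 10.71% in TBX3 replicate c to 47.45% in TBX3 replicate b. In the Ctl libraries it was 30.28% to 40.21%, above the TBX4 libraries and TBX5 replicate a. Some effect sizes are also given without TBX5 replicates b and c. That leaves only TBX5 replicate a on the TBX5 side, with no spread of its own. Counts were scaled by trimmed mean of M values (TMM) factors, and levels are counts scaled to library size (CPM), not per length. The line's mesenchymal marker VIM lay at 689 to 967 CPM over the 18 libraries, while CDH1, EPCAM and NKX2-1, which mark epithelium and lung lineage, had at most 2, 3 and 4 counts. Epithelial markers were not all absent, since the keratins KRT8 and KRT18 lay at 19.3 to 52.5 CPM and 43 to 75.5 CPM. Of 14 markers of blood, immune, endothelial and fibroblast cells, only ACTA2 passed the count filter, the sum of all 14 was 3.41 to 3.78 CPM with TBX4 and 2.77 to 3.56 CPM with TBX5, and HBB was at 0 counts in every library.

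The plasmid genes were examined first. TBX4 (ENSG00000121075, chromosome 17, 59529765 to 59562471 in GRCh37) lay at 7520, 8471 and 7864 CPM in TBX4 replicates a, b and c. It lay at 1.22, 3.56 and 1.48 CPM in the TBX5 libraries. Low TBX4 counts were also found with TBX2 (1.78 to 1.95 CPM) and TBX3 (0.421 to 1.5 CPM), while the 6 EV and Ctl libraries had at most 1 count, and the source of these reads was not tested. TBX5 (ENSG00000089225, chromosome 12, 114791716 to 114846247) lay at 128, 230 and 242 CPM in the TBX5 libraries, against 0, 0 and 1 count in the TBX4 libraries. That is at least 800-fold higher than the mean level of 3 counts in a TBX4 library (0.25 CPM), the floor used here. Since reads of the mouse plasmid were counted on the human gene, the amounts of TBX4 and TBX5 in the cells cannot be compared, and the share of transfected cells and the level per transfected cell cannot be told apart. TBX5 had more than 5 counts in only 3 libraries and so was not among the tested genes. TBX4 replicate c carries a label that starts with the TBX4 number and ends in TBX5. Its 85197 counts of TBX4 and 1 of TBX5 were those of the TBX4 libraries.

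The expression profiles with TBX4 and TBX5 differed at few genes. Of 15576 genes, 84 reached an adjusted p under 0.1 by the quasi-likelihood test of edgeR, adjusted by Benjamini-Hochberg (0.539%), 17 higher with TBX4 (0.109%) and 67 higher with TBX5 (0.430%). An unadjusted p under 0.05 was found for 1262 genes, and the median log2 fold change over all tested genes was 0.00 with 50.9% above 0. Of the calls, 79.8% were higher with TBX5. Scaled by library totals instead, which lets the share of ENSG00000266658 into every other level, the median moved to 0.57, and 0.184% of 6518 calls were higher with TBX5, so directions hold relative to the TMM scale. On that scale 36 of the 67 TBX5-side genes turned to the other sign, SOX4, NPTX1, NOG, KCNA7 and ROR1 not among them, and CTSB, TGFB2, ENC1, UVSSA, CAB39 and KRT8 among them. In the same fit, and with no library in common, the 3 TBX2 libraries differed from the 3 TBX3 libraries at 2417 genes (15.5%), and EV from Ctl at 29 (0.186%). Against the 6 control libraries, TBX4 differed at 1810 genes (11.6%) and TBX5 at 2141 (13.7%).

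Absence of a call does not show that the factors acted alike, so the interval of each difference was also taken. The 95% interval of the log2 fold change lay within -1 and 1 for 12977 genes (83.3%) and within -0.5 and 0.5 for 8973 genes (57.6%). Log2 levels of the tested genes correlated at 0.993 to 0.994 between TBX4 libraries, at 0.986 to 0.987 between TBX5 libraries and at 0.987 to 0.991 across the factors. By this measure, pairs across the factors were no less alike than TBX5 pairs but less alike than TBX4 pairs. Such correlations also fall when fewer counts are left, and TBX5 replicates b and c had the fewest. They therefore do not show that the factors acted alike. The 6 libraries fell into 2 groups that did not overlap for all 84 called genes, while 13.2% of all tested genes did so. Only 18 of the 84 genes differed at least 2-fold, 4 higher with TBX4 and 14 with TBX5.

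**Figure D1:**
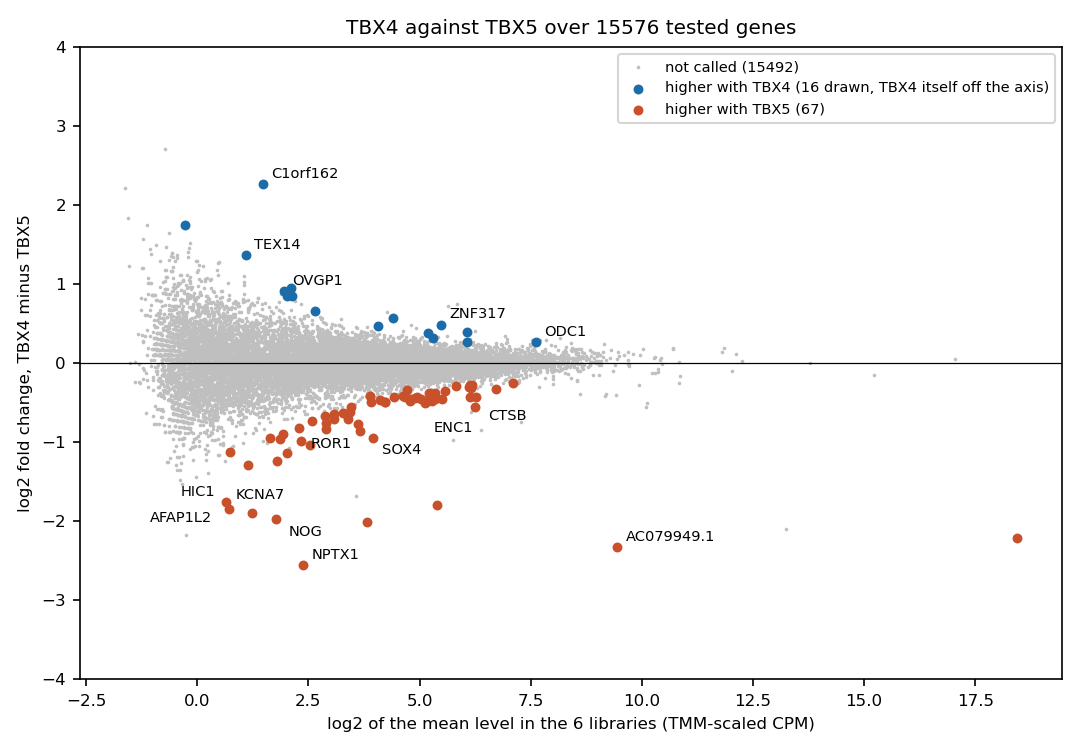
Difference between TBX4 and TBX5 (log2 fold change, vertical axis) against the mean level in the 6 libraries (log2 of TMM-scaled CPM, horizontal axis), 1 point per tested gene. Coloured points are the 67 genes higher with TBX5 and 16 of the 17 higher with TBX4; among the called genes drawn NPTX1 lies farthest below 0 and C1orf162 farthest above, and TBX4 itself is off the axis.

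The number of calls rested on a few libraries. It was 39 without TBX4 replicate c, the library with the doubtful label, 37 without TBX4 replicate a and 31 without replicate b. It was 28 without TBX5 replicate b, 17 without replicate c and 100 without TBX5 replicate a. With the log2 share of ENSG00000266658 as a covariate, 22 genes were called, 18 of them among the 84. Of the 84 genes, 14, 3 higher with TBX4 and 11 with TBX5, were called with the same sign in each of the 6 fits that left out a library. They were TBX4, C1orf162 and ZNF317 on the TBX4 side, and on the TBX5 side they included NPTX1, NOG, KCNA7, SOX4, ROR1, CTSB, UVSSA, ENC1, ANKRD20A5P and CAB39, a set chosen after their values were seen.

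The called genes are described by role. The roles only order the text: apart from the lists named as such, genes were placed in them after their values were seen, and no list or share over all genes stands behind them. NPTX1, which encodes the secreted neuronal pentraxin that gathers glutamate receptors at synapses, showed the largest difference on the TBX5 side. Its level (ENSG00000171246, chromosome 17, 78440634 to 78451643 in GRCh37) was 8.07, 9.49 and 9.28 CPM with TBX5 and 2.00, 1.24 and 1.20 CPM with TBX4. All 3 TBX5 libraries lay far above the TBX4 libraries, and the 6 controls lay lower still, at 0.395 to 0.797 CPM. The difference was 5.89-fold (log2 fold change -2.56, SE 0.21, edgeR adjusted p = 8.87e-09). NPTX1 was above the controls with each factor, by 3.83 on the log2 scale with TBX5 (adjusted p = 1.01e-12) and by 1.27 with TBX4 (adjusted p = 0.00431). Without TBX5 replicates b and c, which leaves only TBX5 replicate a, its log2 fold change was -2.44.

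NOG encodes noggin, a secreted antagonist of bone morphogenetic proteins that shapes limb and joint development. It lay at 6.19, 7.71 and 2.60 CPM with TBX5 and at 1.68, 1.55 and 0.923 CPM with TBX4. The groups did not overlap, but TBX5 replicate c was much nearer to the TBX4 libraries than replicates a and b. The difference was 3.94-fold (log2 fold change -1.98, SE 0.32, edgeR adjusted p = 0.00182), and the controls lay at 0.198 to 0.963 CPM. FSTL3, a secreted protein that binds activin, lay at 5.42, 7.12 and 7.79 CPM with TBX5 and 3.11, 3.03 and 3.88 CPM with TBX4 (1.98-fold, adjusted p = 0.05). TGFB2, a ligand of the TGF-beta receptors, was at 13.3, 11.9 and 14.3 CPM with TBX5 and at 8.94, 8.54 and 9.41 CPM with TBX4. In the last 2 genes TBX4 did not differ from the controls at an adjusted p under 0.1, with values of 0.434 for FSTL3 and 0.697 for TGFB2. TGFB2 differed 1.47-fold between the factors (adjusted p = 0.0316).

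NOG and TGFB2 were the 2 called members of the TGF-beta and BMP list, of which 23 of 30 genes were tested. Of all tested genes 0.539% were called. The median log2 fold change of the list was -0.02, beside 0.00 over all genes, with 10 members above 0 and 13 below. Among the members not called, ID2, which blocks bHLH factors, was at -0.60 on the log2 scale (adjusted p = 0.147). Members of the list thus lay on both sides of 0.

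KCNA7, a voltage-gated potassium channel, lay at 3.76, 3.56 and 3.90 CPM with TBX5 and 0.639, 1.24 and 1.11 CPM with TBX4. The TBX5 values were tight and lay clear of both the TBX4 libraries and the controls (0.265 to 0.586 CPM), with a 3.73-fold difference (log2 fold change -1.90, SE 0.30, edgeR adjusted p = 0.0012). KCNK6, a tandem-pore potassium channel, lay at 3.98, 5.54 and 5.19 CPM against 2.00, 1.94 and 2.12 CPM (2.36-fold, adjusted p = 0.0208). The smaller difference of LRRC8A, a subunit of the volume-regulated anion channel, was 1.33-fold (adjusted p = 0.0163), and that of RRAD, a small GTPase that limits calcium channels, 2.20-fold (adjusted p = 0.0625). TBX4 did not differ from the controls at an adjusted p under 0.1 for KCNK6 (0.684), and it lay above them for KCNA7 (0.0203).

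SOX4, an HMG-box factor of progenitor cells, lay at 21.6, 22.4 and 17.6 CPM with TBX5 and 9.50, 11.1 and 11.5 CPM with TBX4. The TBX4 libraries lay within the range of the 6 controls (9.38 to 12.5 CPM) and all TBX5 libraries above it. The difference was 1.93-fold (log2 fold change -0.95, SE 0.12, edgeR adjusted p = 3.3e-05). Against the controls, the log2 fold change of SOX4 was 0.01 with TBX4 (adjusted p = 0.98) and 0.95 with TBX5 (adjusted p = 2.91e-07). HIC1, a zinc-finger repressor, was at 2.54, 2.18 and 2.60 CPM with TBX5 and 0.798, 0.776 and 0.554 CPM with TBX4 (3.39-fold, adjusted p = 0.0332). CASZ1, a zinc-finger factor of heart and vessel development, differed 1.86-fold (adjusted p = 0.0625), and KLF2, a Krüppel-like factor, 1.79-fold (adjusted p = 0.0774). HBP1, an HMG-box repressor, and MYBL1, a MYB-family factor, were higher by 1.35-fold and 1.20-fold.

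ROR1, a receptor tyrosine kinase that binds WNT5A, lay at 16.3, 17.4 and 15.6 CPM with TBX5 and 8.38, 9.23 and 9.51 CPM with TBX4. Both groups were tight, and the controls lay at 5.83 to 8.41 CPM, mostly below the TBX4 libraries. ROR1 differed 1.81-fold (log2 fold change -0.86, SE 0.13, edgeR adjusted p = 0.000564). EPHB2, a receptor for ephrins, was higher with TBX5 by 1.63-fold, FGFRL1, an FGF receptor without a kinase domain, by 1.41-fold, MERTK, a receptor for apoptotic cells, by 1.41-fold and LRP8, a reelin receptor, by 1.31-fold. ADRB1, the beta-1 adrenergic receptor, and ADGRB2, an adhesion receptor of the G-protein coupled family, differed 2.18-fold and 2.44-fold, at adjusted p of 0.0976 and 0.0687. Among the ligands, SLIT2, the guidance cue for ROBO receptors, differed 1.94-fold, KITLG, the ligand of KIT, 1.67-fold, and CLCF1, a cytokine of the IL-6 family, 1.77-fold.

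CTSB, the lysosomal protease cathepsin B, lay at 90.3, 86.4 and 96.5 CPM with TBX5 and 63.4, 62.9 and 58.5 CPM with TBX4. No library of either group came near the other, and the controls lay at 50.5 to 59.6 CPM. The difference was 1.48-fold (log2 fold change -0.56, SE 0.07, edgeR adjusted p = 3.3e-05). ENC1, an actin-binding kelch protein, lay at 56.3, 49.1 and 51.4 CPM with TBX5 and 38.3, 38.7 and 37.8 CPM with TBX4 (1.37-fold, adjusted p = 0.000564). UVSSA, a factor of transcription-coupled repair, and CAB39, a scaffold of the kinase LKB1, were higher by 1.37-fold and 1.34-fold. The matrix and adhesion list had 30 of 38 genes tested, and its 2 called members were COL6A1, a chain of collagen VI (1.41-fold), and TIMP2, a metalloproteinase inhibitor (1.30-fold), both higher with TBX5. The median of this list was -0.02, with 12 members above 0, and 0.539% of all tested genes were called. KRT8, the keratin of simple epithelia, was at 39.6, 44.1 and 52.5 CPM with TBX5 and 33.2, 33.5 and 29.4 CPM with TBX4 (adjusted p = 0.0221), while its partner KRT18 was at 61.5, 68.0 and 72.7 CPM against 65.6, 65.3 and 54.4 CPM (adjusted p = 0.784).

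AFAP1L2, an adaptor of SRC signalling, and YPEL2, a small protein of the Yippee family, completed the largest TBX5-side differences that have a known product, at 3.61-fold (adjusted p = 0.0221) and 2.04-fold (adjusted p = 0.0365). AC079949.1 and CTD-2328D6.1, annotated as a miRNA and a pseudogene, were called as well (5.02-fold and 4.02-fold, adjusted p of 0.0914 and 0.0920), but they moved with the most counted gene. AC079949.1 lay at 413, 1256 and 1837 CPM with TBX5 and 141, 237 and 320 CPM with TBX4. ENSG00000266658 lay at 198085, 781614 and 783376 CPM with TBX5 and 104965, 118048 and 157951 CPM with TBX4. In each of these genes TBX5 replicates b and c were far above replicate a, and the controls spanned the gap, from 141 to 1064 CPM for AC079949.1. AC079949.1 and CTD-2328D6.1 were not called with the share of ENSG00000266658 as a covariate. For ENSG00000266658 that fit is no test, since the covariate is its own share. The part of this share in the other differences was tested only by that fit and by leaving libraries out.

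**Figure D2:**
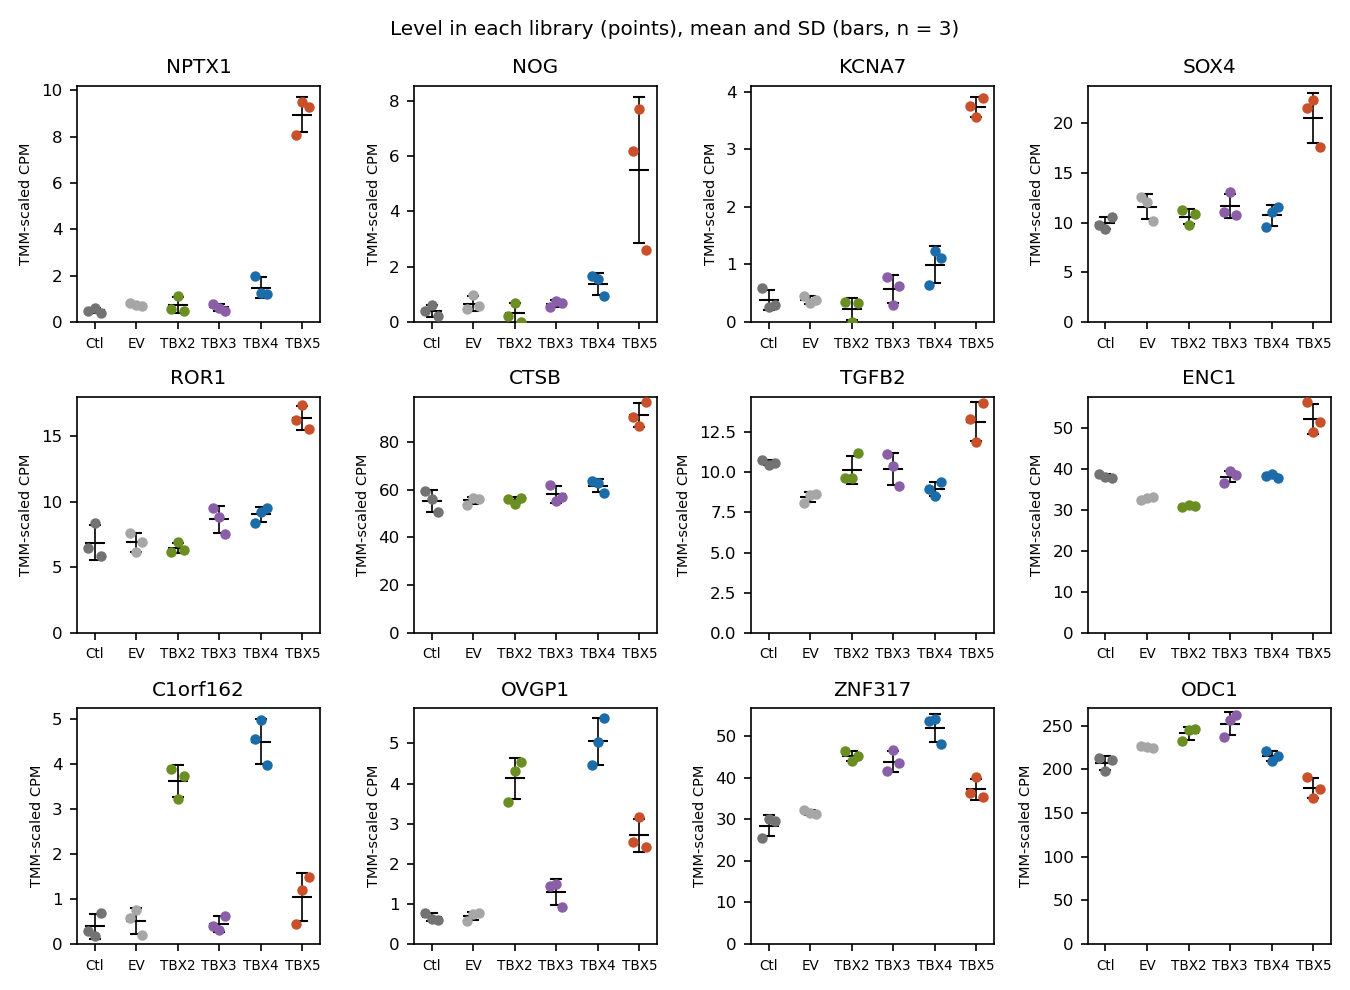
Level of 12 genes in every library of the 6 groups (TMM-scaled CPM, linear axes from 0); points are libraries, bars the mean and SD of 3. The TBX5 libraries stand above all other groups for NPTX1, NOG, KCNA7, SOX4, ROR1, CTSB, TGFB2 and ENC1, and the TBX2 libraries stand with TBX4 for C1orf162 and OVGP1.

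Fewer genes were higher with TBX4, and their median level was 16.8 CPM, beside 18.8 CPM for the TBX5 side and 10.7 CPM for all tested genes. C1orf162, a gene of unknown function (ENSG00000143110, chromosome 1, 112016414 to 112021134 in GRCh37), lay at 4.55, 4.97 and 3.97 CPM with TBX4 and 0.442, 1.19 and 1.48 CPM with TBX5. The TBX5 libraries were mostly above the controls (0.177 to 0.749 CPM), by 1.15 on the log2 scale (adjusted p = 0.141). The factors differed 4.80-fold (log2 fold change 2.26, SE 0.34, edgeR adjusted p = 0.000564). OVGP1, the oviduct glycoprotein, lay at 4.47, 5.04 and 5.63 CPM with TBX4 and 2.54, 3.16 and 2.41 CPM with TBX5, all above the controls (0.569 to 0.782 CPM). TEX14, a protein of germ cell bridges, was at 2.63, 3.26 and 3.32 CPM against 0.996, 0.989 and 1.67 CPM. These last 2 genes were above the controls with each factor and further above with TBX4, at an adjusted p between the factors of 0.05 and 0.0920.

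ZNF317, a Krüppel-type zinc-finger gene, lay at 53.7, 54.2 and 48.2 CPM with TBX4 and 36.3, 40.2 and 35.4 CPM with TBX5. All 6 libraries were above the controls (25.5 to 32.2 CPM), and the 3 TBX4 libraries were the highest (1.40-fold, log2 fold change 0.49, SE 0.08, edgeR adjusted p = 0.00168). It was the only called member of 228 tested ZNF genes on chromosome 19, where 0.539% of all tested genes were called. The median log2 fold change of these 228 was -0.03. None of 226 tested ZNF genes on other chromosomes was called by edgeR. Among the 226, 17 had an unadjusted p under 0.05 and the smallest edgeR adjusted p was 0.377. Against the controls, 67 of the 228 were higher with TBX4 (6.79% of all genes were) and 66 with TBX5 (7.45% of all genes). ITGAM, the alpha M integrin, NMNAT3, an NAD synthesis enzyme, and NUDT19-DT, a long non-coding RNA, were higher with TBX4 by 1.81-fold, 1.81-fold and 1.93-fold. RNF123, a ubiquitin ligase, GDAP1, a protein of the mitochondrial outer membrane, and the small nucleolar RNA gene SNORA53 were higher by 1.39-fold, 1.30-fold and 1.49-fold.

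Of the 17 TBX4-side genes, 6 were below the controls with TBX5 (background 6.29%) and 11 above the controls with TBX4 (background 6.79%), and none was both. The 6 included ODC1, the first enzyme of polyamine synthesis, at 191, 167 and 177 CPM with TBX5 and 221, 210 and 215 CPM with TBX4. ODC1 in the TBX4 libraries lay within the controls (198 to 226 CPM). TLR6, a receptor for bacterial lipopeptides, lay at 5.42, 4.95 and 3.90 CPM with TBX5 and 8.14, 6.83 and 8.21 CPM with TBX4. FANCD2, a DNA crosslink repair protein, and ZFAS1, a long non-coding RNA host of small nucleolar RNAs, followed the same pattern at 1.21-fold and 1.31-fold. NAV3, a neuron navigator, was also among the 6 and differed 1.24-fold between the factors. Its TBX5 libraries (34.1 to 36.2 CPM) lay at the low end of the controls (34.6 to 53.1 CPM), where EV was 0.51 above Ctl on the log2 scale. BCO2, a carotenoid cleavage enzyme, followed the pattern at 0.221 to 1.38 CPM in the TBX4 and TBX5 libraries. Its 2, 3 and 2 counts with TBX5 were at or under the floor of 3 counts.

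On the TBX5 side, 63 of the 67 genes were above the controls with TBX5 (background 7.45%), and for 40 of these TBX4 did not differ from the controls. For 22 genes both factors were above the controls, with TBX5 further above. With TBX4, 4 of the 67 genes were below the controls (background 4.83%), among them HNRNPUL2, an RNA-binding protein, at 7.37 to 7.66 CPM with TBX4, 11.3 to 12.7 CPM with TBX5 and 8.11 to 12.9 CPM in the controls. The comparisons of TBX4 and TBX5 with the controls share the same 6 control libraries and the libraries that chose the genes, so these counts describe the calls and do not test them.

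**Figure D3:**
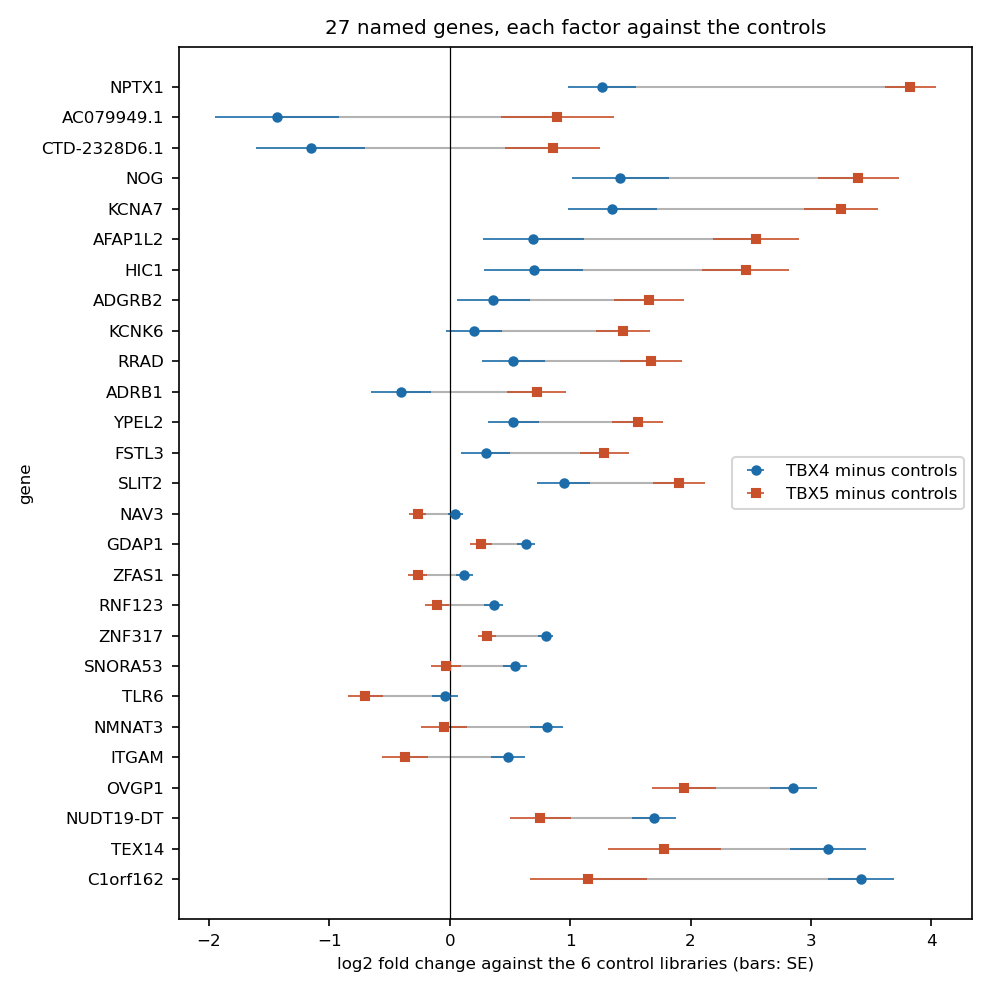
Log2 fold change of 27 named genes against the 6 control libraries (horizontal axis), circles for TBX4 and squares for TBX5, bars the standard error. NPTX1, NOG, KCNA7 and SLIT2 lie above 0 with each factor and further with TBX5, while C1orf162, TEX14, OVGP1 and ZNF317 lie further with TBX4.

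The TBX2 and TBX3 libraries are not part of the contrast that called these genes, but the count filter and the estimate of spread used them, so the counts that follow are descriptions and not independent of the choice. C1orf162 and TEX14 would not have passed the filter without the counts of the TBX2 libraries, while genes such as MARVELD2 fell under it. Of the 16 genes higher with TBX4 other than TBX4 itself, 11 were higher with TBX2 than with TBX3 (background 8.01%), and none was lower. These were C1orf162, TEX14, OVGP1, ITGAM, NMNAT3, NUDT19-DT, TLR6, RNF123, NAV3, GDAP1 and ZFAS1. Of these 11, only C1orf162 was called between TBX4 and TBX5 in each of the 6 fits that left out a library. C1orf162 lay at 3.21 to 3.89 CPM with TBX2 and 0.301 to 0.631 CPM with TBX3 (log2 fold change 2.84, SE 0.38, edgeR adjusted p = 6.18e-06). ITGAM lay at 18.6 to 22.2 CPM with TBX2, far above the TBX4 libraries (4.52 to 5.66 CPM), and at 3.29 to 4.66 CPM with TBX3. ZNF317 did not show this pattern, with 44.1 to 46.5 CPM with TBX2 and 41.5 to 46.6 CPM with TBX3 (adjusted p = 0.767). NAV3 was also the only one of the 16 that differed between EV and Ctl (0.51 higher with EV on the log2 scale, adjusted p = 0.000195).

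Of the 67 genes on the TBX5 side, 9 were lower with TBX2 than with TBX3 (background 7.51%) and 5 were higher, with a median log2 fold change of -0.07. The 9 were KITLG, TIAM1, TIMP2, ENC1, KRT8, CUL4B, FGD6, ANKRD20A5P and MAEA, and the 5 were SLIT2, YPEL2, EPHB2, PPP6R2 and VGF. NPTX1 (adjusted p = 0.704), SOX4 (0.620) and CTSB (0.651) did not differ between TBX2 and TBX3 at the threshold. TBX2 and TBX4 share their kind of plasmid and their place on chromosome 17, and TBX3 and TBX5 share theirs on chromosome 12, so plasmid and factor cannot be told apart in either comparison.

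**Figure D4:**
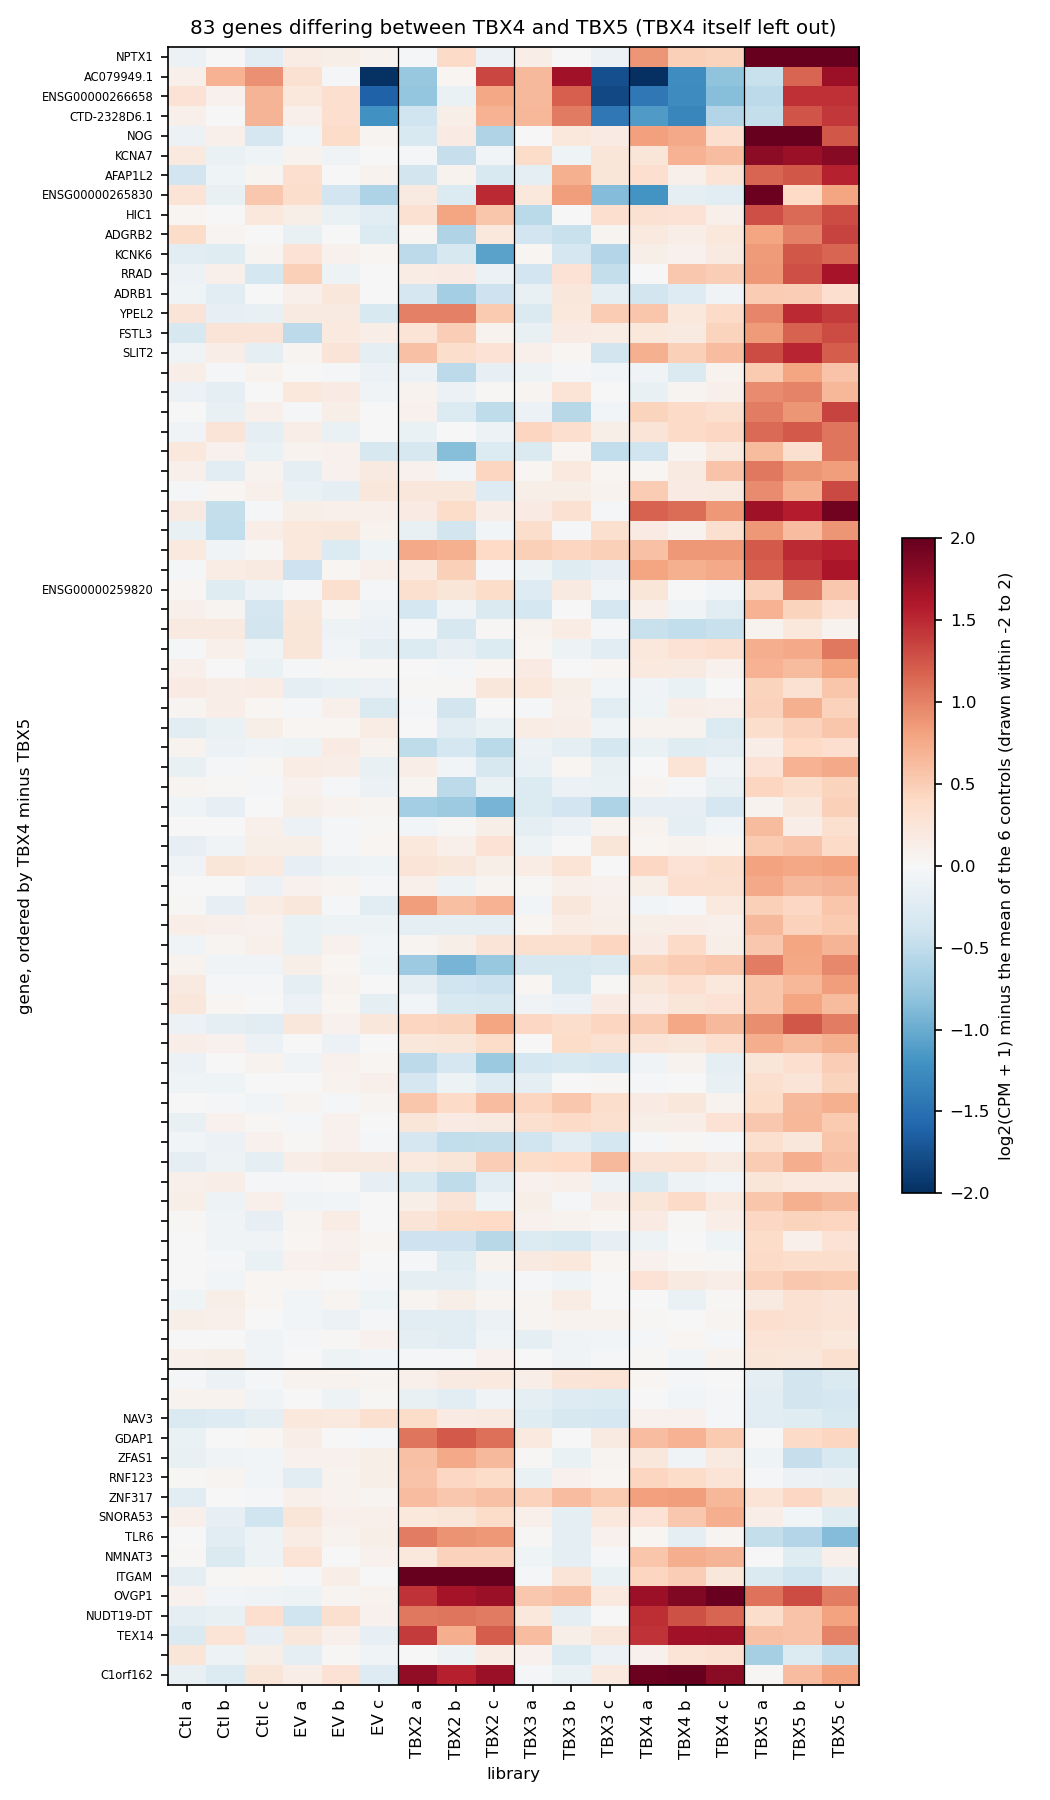
The 83 called genes other than TBX4 (rows, from the most TBX5-high at the top to the most TBX4-high at the bottom) in all 18 libraries (columns); colour is log2(CPM + 1) minus the mean of the 6 controls, and only the 27 genes with the largest differences under the naming rule and the genes without a symbol are labelled. The upper block is red mainly in the 3 TBX5 libraries, the rows of AC079949.1, ENSG00000266658 and CTD-2328D6.1 vary within every group, and part of the lower block is red with both TBX4 and TBX2.

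Of the 17 T-box genes, 9 passed the filter, and TBX4 was the only one called. TBX3, in cells not given the TBX3 plasmid, lay at 6.55, 6.67 and 6.83 CPM with TBX4 and 13.2, 7.71 and 9.83 CPM with TBX5. The groups did not overlap and all 6 values lay above the controls (1.37 to 3.32 CPM), but the difference did not pass the test (log2 fold change -0.67, SE 0.19, edgeR adjusted p = 0.184). TBX3 was above the controls by 1.58 with TBX4 (adjusted p = 1.75e-06) and by 2.25 with TBX5 (adjusted p = 5.9e-09). The TBX3 libraries held 135416 to 320890 counts of TBX3, and whether the reads in other libraries came from the chromosomal gene or a plasmid was not tested. TBX2 lay at 3.59, 3.57 and 2.58 CPM with TBX4 and at 3.54, 4.15 and 2.78 CPM with TBX5 (adjusted p = 0.961). TBX18 and MGA had adjusted p of 0.732 and 0.934, and TBX1, TBX19, EOMES and TBX20 had 0.525, 0.685, 0.703 and 0.784.

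Among 25 heart, limb and lung genes described elsewhere as T-box targets, 8 passed the filter and none was called in edgeR's test, where the smallest adjusted p was 0.147. The single member with an unadjusted p under 0.05 was ID2, at 5.03, 6.36 and 5.91 CPM with TBX4 and 9.07, 8.70 and 8.35 CPM with TBX5. SALL4, HEY2 and KCNJ2 were at -0.40, -0.35 and -0.19 on the log2 scale, GATA6 and HAND2 at 0.15 and 0.21, and WNT2B and MEF2C at 0.07 and -0.03. The heart genes NPPA, MYH6 and TNNT2 and the limb and lung ligand FGF10 had at most 2 counts in any TBX4 or TBX5 library.

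The promoters of the called genes were searched for the T-box core AGGTGT, and for AGGTGTGA, which contains it, on both strands of the 300 bases from 250 before to 50 after each RefSeq start (GRCh38.p14). A gene with several starts was counted once if any of them held the motif. Of 10736 tested genes with a promoter in the table, 12.4% held AGGTGT and 1.05% AGGTGTGA. On the TBX5 side 5 of 44 genes held the core (KCNK6, SERPINI1, ARHGAP26, NLGN2 and CUL4B) and 1 the longer motif, and on the TBX4 side 0 of 11. Those of SERPINI1, which encodes the protease inhibitor neuroserpin, and KCNK6 are shown because they were the TBX5-side genes with the longer motif and with the largest difference among the holders. Each is the 250 bases before the start, read 5′ to 3′ on the gene's plus strand, at chr3:167735471-167735720 and chr19:38319595-38319844, with the motif in capitals.
SERPINI1: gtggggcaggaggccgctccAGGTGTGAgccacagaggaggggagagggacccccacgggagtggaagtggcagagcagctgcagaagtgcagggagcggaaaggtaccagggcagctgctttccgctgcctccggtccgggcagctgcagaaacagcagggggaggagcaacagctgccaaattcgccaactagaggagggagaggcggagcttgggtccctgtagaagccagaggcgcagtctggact
KCNK6: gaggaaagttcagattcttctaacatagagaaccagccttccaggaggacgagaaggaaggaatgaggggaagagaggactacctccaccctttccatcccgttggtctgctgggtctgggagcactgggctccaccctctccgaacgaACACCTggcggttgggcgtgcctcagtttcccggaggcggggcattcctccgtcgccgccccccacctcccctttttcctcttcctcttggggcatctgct
In SERPINI1 the motif starts 230 bases before the start on the strand shown, and in KCNK6 the core lies on the opposite strand, 101 bases before the start. SERPINI1 lay at 9.07, 8.31 and 10.9 CPM with TBX5, at 6.07, 5.74 and 4.71 CPM with TBX4 and at 1.24 to 2.54 CPM in the controls, so it was above the controls with each factor (1.70-fold between the factors, edgeR adjusted p = 0.0341). These matches describe letters in a window and no binding was measured.

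The 30 lists of pathway, stress, cell cycle and marker genes gave 8 calls among them, TBX4 itself included, with no call in 24 lists. Of all tested genes 0.539% were called, a share at which most lists of this size would hold no call. These counts therefore describe the lists and show no lack of difference in them. KLF2 was the called member of 26 tested immediate-early genes. FOSB, a subunit of AP-1, lay at 7.90, 9.16 and 8.68 CPM with TBX4 and 4.54, 7.52 and 7.05 CPM with TBX5, against 0.395 to 1.61 CPM in the controls. FOSB was thus above the controls with each factor (by 3.49 with TBX4 and 2.99 with TBX5 on the log2 scale) and did not differ between them at the threshold (0.50, SE 0.17, edgeR adjusted p = 0.379). TNFAIP3, an inhibitor of NF-kappaB, and CDKN1A, the CDK inhibitor p21, behaved likewise, with adjusted p of 0.508 and 0.434 between the factors. The lists for interferon-stimulated genes (27 tested), MHC class I (14), heat shock (23), unfolded protein response (28), DNA methylation (12), histone demethylases (21), protein arginine methyltransferases (8), WNT and FGF (22) and splicing (23) had medians from -0.05 to 0.07 and no call. For 26 of the 27 interferon-stimulated genes and all 23 heat shock genes the 95% interval lay within -1 and 1.

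Many sterol and fatty acid synthesis genes were below the controls with each factor, and none passed the test between the factors. Of 31 tested, 21 were below the controls with TBX4 (4.83% of all genes were) and 23 with TBX5 (6.29% of all genes), with medians of -0.35 and -0.42. Between the factors the median was 0.03 and none was called by edgeR, with 3 at an unadjusted p under 0.05, and for 30 of the 31 the interval lay within -1 and 1. The smallest p was that of CYP51A1, a lanosterol demethylase, at 0.71 on the log2 scale (adjusted p = 0.369).

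Small shifts shared by many members were found in lists of growth genes, with no member called in edgeR's test. Of 29 tested replication-dependent histone genes, which are transcribed in S phase, 28 had a log2 fold change above 0, with a median of 0.16, beside 50.9% above 0 over all genes. H1-4, a linker histone, lay at 343, 322 and 288 CPM with TBX4 and 252, 242 and 269 CPM with TBX5 (log2 fold change 0.32, adjusted p = 0.117). An unadjusted p under 0.05 was found for 11 of the 29 histone genes, and for 1262 of all 15576. Cytoplasmic ribosomal proteins (71 of 81 above 0, median 0.10), mitochondrial ribosomal proteins (60 of 74, 0.09), mitosis and spindle genes (32 of 39, 0.06) and DNA replication genes (33 of 46, 0.07) leaned the same way. Members of a list are measured in the same 6 libraries and are not replicates. The SD between libraries of a list's median level, TBX4 and TBX5 spreads combined, was 0.08 for the histone genes. It was 0.07 for cytoplasmic and 0.04 for mitochondrial ribosomal proteins, 0.06 for mitosis and 0.05 for DNA replication, so several shifts were near this spread. Against the controls, 6 of the 29 histone genes were lower with TBX4 and 18 with TBX5, and 7 and 19 of the 39 mitosis genes, where 4.83% and 6.29% of all genes were. The histone and ribosomal protein medians were 0.73 and 0.66 by library totals, beside 0.57 for all genes. The histone median was 0.05 with the share of ENSG00000266658 as a covariate and 0.08 without TBX5 replicates b and c. Under the same changes the medians were 0.02 and 0.01 for DNA replication, 0.04 and 0.09 for cytoplasmic ribosomal proteins, 0.06 and 0.07 for mitochondrial ribosomal proteins and 0.05 and 0.06 for mitosis.

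Genes of the mitochondrial genome went the other way, with 21 of 25 tested below 0 and a median of -0.30, and none was called by edgeR, with 3 at an unadjusted p under 0.05. MT-ND6, a subunit of complex I, lay at 100, 103 and 144 CPM with TBX4 and at 107, 238 and 244 CPM with TBX5 (adjusted p = 0.600). TBX5 replicate a was within the TBX4 libraries and replicates b and c were above them, as was the share of ENSG00000266658. The SD between libraries of the list's median level, TBX4 and TBX5 spreads combined, was 0.32, as large as the shift. The median turned to 0.22 with that share as a covariate and to 0.28 by library totals, the latter below the 0.57 of all genes.

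**Figure D5:**
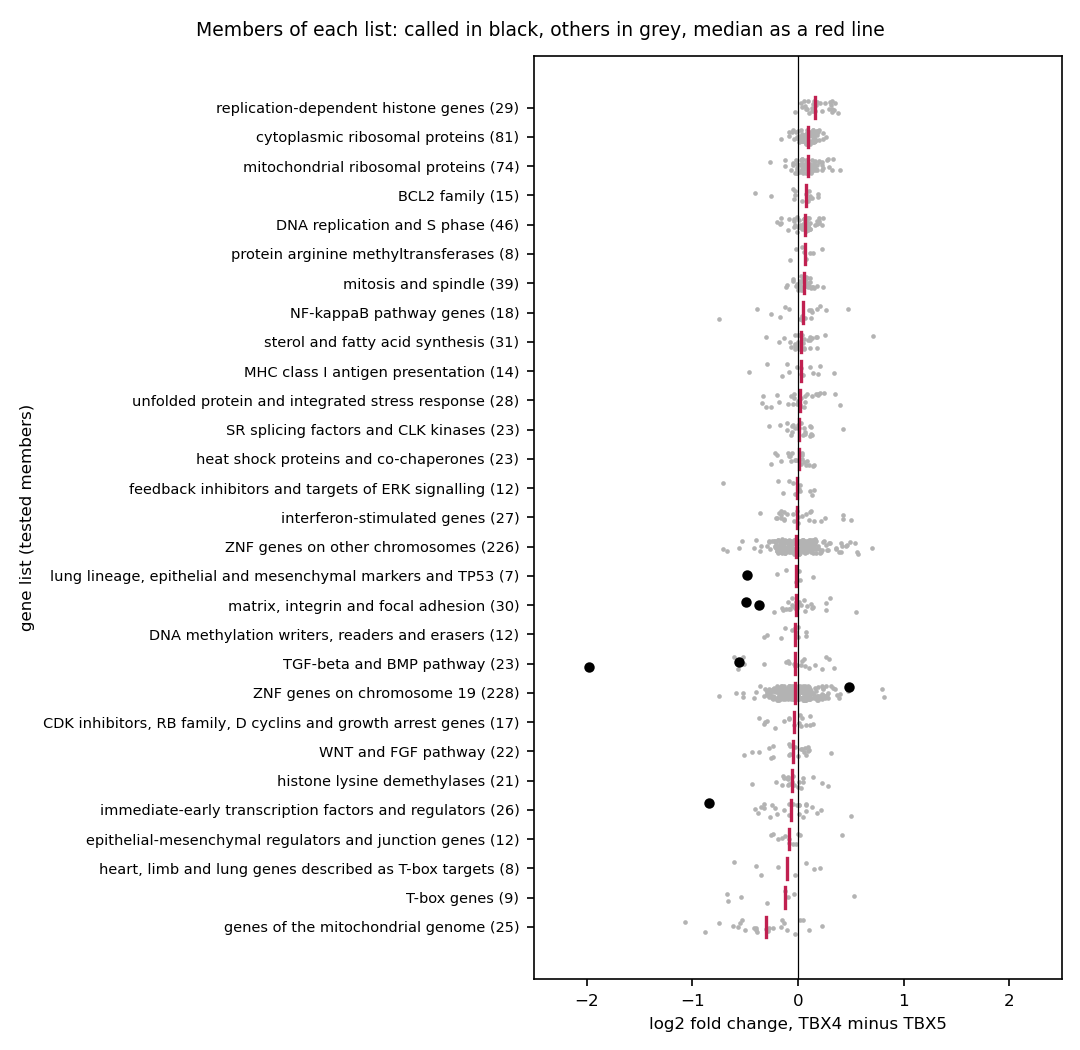
Log2 fold change of TBX4 minus TBX5 (horizontal axis) for the tested members of 29 gene lists (rows, number tested in brackets; called members black, others grey, median as a red line; TBX4 itself off the axis). Medians run from -0.30 in the mitochondrial genome to 0.16 in the replication-dependent histones, and called members are single points such as NOG, KLF2 and ZNF317.

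Genes under the count filter were fitted separately, with all 40841 genes that had a count. Of 154 genes called there, 130 passed the filter of the main comparison and 24 did not, 16 higher with TBX5 and 8 with TBX4. The 16 included the plasmid gene TBX5 itself and HBD, whose reads are described under the other observations. MUC4, a membrane mucin, had 33, 42 and 43 counts with TBX5, 25, 34 and 23 with TBX4 and at most 1 in each control. RASL10A, a RAS-like GTPase, had 36, 33 and 24 counts with TBX5, 20, 18 and 13 with TBX4 and at most 5 in each control. ROR2, the relative of ROR1, had 12, 9 and 7 counts with TBX5, 1, 3 and 1 with TBX4 and 0 in every control. CXCR4, a chemokine receptor, had 5, 7 and 6 counts with TBX5 and 3, 1 and 0 with TBX4. CGB3, CGB5 and LHB, near-identical gonadotropin beta genes that can share reads, were also higher with TBX5. On the TBX4 side MARVELD2, a protein of tricellular junctions, had 15, 26 and 21 counts with TBX4 and 2, 3 and 3 with TBX5. WDR49 and ERICH3 had 12 to 22 and 13 to 20 counts with TBX4, and at most 3 and 5 with TBX5. At this depth 3 counts equalled 0.233 to 0.277 CPM in a TBX4 library and 0.332 to 0.593 CPM in a TBX5 library, so a gene under these levels could not be seen in either group.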

How the data were processed

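The authors deposited 1 table of raw counts per Ensembl gene for 18 libraries. Per their methods, paired-end reads were aligned to GRCh37 with STAR (version 2.3.0 in the submitters' processing notes) and counted with featureCounts at default settings, with no normalization. The default ignores strand, so antisense and overlapping genes cannot be separated. Groups and replicate letters came from the labels.

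One edgeR 4.0.16 quasi-likelihood fit (R 4.3.3, TMM) held all 18 libraries in 6 groups, and TBX4 minus TBX5 was the contrast, with Benjamini-Hochberg adjustment over 15576 genes and a threshold of 0.1 as in the study, which used DESeq2. Standard errors were derived from the F statistic. Same-letter TBX4 and TBX5 libraries showed no shared deviation (correlations -0.05, 0.04 and -0.02), so letters were not used as pairs. Each replicate pair of TBX4 and of TBX5 differed by more than sampling noise. Symbols (91.8% of tested genes) and GRCh37 positions came from GENCODE v44lift37. The rule for named genes took the 14 largest differences in each direction among called genes with a symbol, groups that did not overlap and a mean of at least 1 CPM, the up to 4 list members with the smallest p, and T-box genes and targets. Other called genes described above, such as SOX4, ROR1, CTSB and ODC1, were outside this rule and were picked after their values were seen. The genes and lists were chosen with earlier results of these data known. Intervals and floors of 3 counts cover counting error or library spread only. DESeq2 1.42.0 and other scalings, filters, covariates and left-out libraries were alternatives. Some genes are not reported here. Without TBX5 b and c was added after seeing the data.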

Additional observations from a re-analysis of the deposited data

How the results depend on the processing

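With DESeq2's size factors in edgeR the test called 82 genes, with GC correction 88, with library totals without ENSG00000266658 71 and with the 6 libraries alone 66 (11 higher with TBX4). DESeq2 called 57, of which 8 were higher with TBX4 and 54 were among the 84, and at least 10 counts in every library left 61 (10 higher with TBX4). Without a filter 154 genes were called (59 higher with TBX4). The share of ENSG00000266658 as a covariate left 22 (4 higher with TBX4, 18 with TBX5), an adjusted p under 0.05 left 38 (5 and 33), and differences of 2-fold or more numbered 18 (4 and 14). With each library left out in turn, 17 to 100 genes were called, 4 to 31 higher with TBX4 and 13 to 69 with TBX5, and without TBX5 b and c together 19 (7 and 12). Blocking on the replicate letter, 74 genes were called (73 of the 84), and 79 with the block and GC correction. The letters do not pair the libraries, so this block is no test of the effect.

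Scaling by library totals, which ignores the unequal share of ENSG00000266658, moved the median log2 fold change of all genes to 0.57 and gave 6518 calls, 6506 higher with TBX4 and 12 with TBX5. The sign turned for 36 genes of the TBX5 side, none of them then past the threshold, among them TGFB2 0.0097, CYP1B1 0.0776, KIAA0930 0.15, DOP1A 0.0916, MERTK 0.0794, COL6A1 0.0752, PCDH7 0.14, PFKFB3 0.15, PPP6R2 0.23, DCLRE1A 0.0663, CYBA 0.15, VGF 0.11, HBP1 0.14, NLGN2 0.0716, TIAM1 0.14, SGK1 0.20, LRRC8A 0.16, TIMP2 0.19, UVSSA 0.10, FGFRL1 0.10, LRP8 0.18, UBN2 0.17, ENC1 0.10, KRT8 0.10, KIFC3 0.22, WDFY1 0.29, ESYT2 0.29, ELOVL2 0.27, CUL4B 0.28, FGD6 0.24, CAB39 0.14, ANKRD20A5P 0.12, CTSB 0.0077, MAEA 0.23, MYBL1 0.31. The depth left in TBX5 replicates b and c limits what could be seen at low levels.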

Other observations

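HBD, the delta chain of haemoglobin, separated the libraries in a way that no other gene did. It had 6, 3 and 3 counts with TBX5, 8 to 28 with TBX3 and 9 to 10 with EV, and 0 counts in all TBX4, TBX2 and Ctl libraries. Of 63677 genes, HBD was the 1 with at least 3 counts in all 9 EV, TBX3 and TBX5 libraries and 0 in the 9 others, and no gene showed the reverse. HBB was at 0 counts throughout, and the source of the HBD reads was not tested.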
